A study of Mus musculus with 96 samples.

Results

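Bile acid synthesis and transport was followed through 10 genes in mouse hepatocytes and liver macrophages. The genes were Cyp7a1, Cyp8b1, Cyp27a1, Cyp7b1, Slc27a5, Baat, Slc10a1, Abcb11, Nr0b2 and Nr1h4. They were chosen by their known function, with earlier results of these data known, and matched by gene symbol. All 10 were found among the 25095 symbols of the expression tables. Where a symbol had several transcripts, the transcript with the highest mean was used. The bulk RNA sequencing covered 96 libraries from male C57BL/6J mice, with 3 libraries for each combination of 4 genotypes, 2 cell types and 4 times of day. Times are zeitgeber times, written ZT4, ZT10, ZT16 and ZT22 for the number of hours since the light came on, and darkness began at ZT12. All mice carried floxed alleles and ate a diet rich in fat and sucrose for 4 weeks after a viral injection at 8 weeks of age. Control mice (Rev-erbα fl/fl, Rev-erbβ fl/fl) received a virus encoding GFP under the hepatocyte promoter TBG. RevDKO mice of the same floxed alleles received Cre from that promoter, which targets Nr1d1 and Nr1d2. These encode the REV-ERB proteins, nuclear receptors that repress clock and metabolic genes. RevScapTKO mice carried floxed Scap in addition, and ScapKO mice carried floxed Scap. Scap encodes the escort protein that brings the lipid-regulating SREBP factors to their site of activation. The macrophages came from the same kinds of mice, in which Cre was directed to hepatocytes. Nothing in the labels tied a replicate number to a litter, day or batch.

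Bile acids are made from cholesterol in hepatocytes. In the classical route Cyp7a1 carries out the first and rate-limiting hydroxylation of cholesterol, and Cyp8b1 adds the hydroxyl group that turns the pathway towards cholic acid. In the alternative route Cyp27a1 hydroxylates the cholesterol side chain and Cyp7b1 hydroxylates the resulting oxysterols. Slc27a5 activates bile acids with coenzyme A and Baat joins them to taurine or glycine. Slc10a1 (NTCP) takes up conjugated bile acids from blood and Abcb11 (BSEP) exports them into bile. Nr1h4 encodes FXR, the nuclear receptor that senses bile acids, and Nr0b2 encodes SHP, an FXR target that represses bile acid synthesis genes.

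Expression was given as RPKTM, reads per kilobase of transcript per 10000000 reads, and had been quantile normalised within each of 4 tables. Control, RevDKO and RevScapTKO shared a table for each cell type, and ScapKO had its own, so ScapKO was never compared with another genotype. Sequencing depth is unknown from these values. The check of the targeted genes was mixed. Scap was lower in all 12 hepatocyte libraries labelled RevScapTKO (82.8 to 299 RPKTM) than in those of Control (395 to 698 RPKTM) and RevDKO (321 to 733 RPKTM). Nr1d1 went against its label, with a mean over the day of 90.7 ± 119 RPKTM (SD, n = 12) in Control, 138 ± 108 RPKTM in RevDKO and 140.3 ± 62.9 RPKTM in RevScapTKO, and its RevDKO level was higher than Control by 1.55 (SE 0.25, adjusted p = 8.87e-05) on the log2(RPKTM + 1) scale. Nr1d2 was 0.62 (SE 0.19, adjusted p = 0.0626) higher in RevDKO. These are values over whole transcripts, and reads over the deleted part alone were not analysed here. The authors, from relative mRNA levels, reported a marked fall of both REV-ERB genes in hepatocytes. The genotype names below are therefore those of the labels, and each direction is that between libraries so labelled. Hepatocyte libraries held all 12 macrophage markers above 5 RPKTM in at least 1 library of each genotype, with summed levels of 262 to 3445 RPKTM in Control, 455 to 2644 in RevDKO and 1034 to 6689.9 in RevScapTKO. Hepatocyte markers summed to 558760.0 to 1109140.0 RPKTM in Control hepatocyte libraries. The second ScapKO library of ZT22 stood apart in both cell types, as described with those results.

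In Control hepatocytes the 10 genes spanned a wide range of level per kilobase. The mean over the day was highest for Slc27a5, 4706 ± 768 RPKTM (SD over 12 libraries of 4 time points), followed by Abcb11 at 3281 ± 755 RPKTM and Cyp27a1 at 2392 ± 417 RPKTM. Slc10a1 (1685 ± 319.6), Cyp7a1 (1583 ± 778) and Cyp8b1 (1539 ± 802 RPKTM) came next and lay within their spread of one another. Baat (795 ± 99.0) and Cyp7b1 (754 ± 318 RPKTM) likewise did not differ beyond their spread. The nuclear receptors were lowest, with Nr1h4 at 483 ± 57.3 RPKTM and Nr0b2 at 100.2 ± 42.2 RPKTM. The order of the means changed in RevScapTKO, where Abcb11 (4088 ± 1007 RPKTM) stood above Slc27a5 (2789.9 ± 712 RPKTM), and Cyp7b1 (1754 ± 743 RPKTM) stood above Cyp27a1 (1264 ± 377 RPKTM). In each pair the spreads overlapped.

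**Figure D1:**
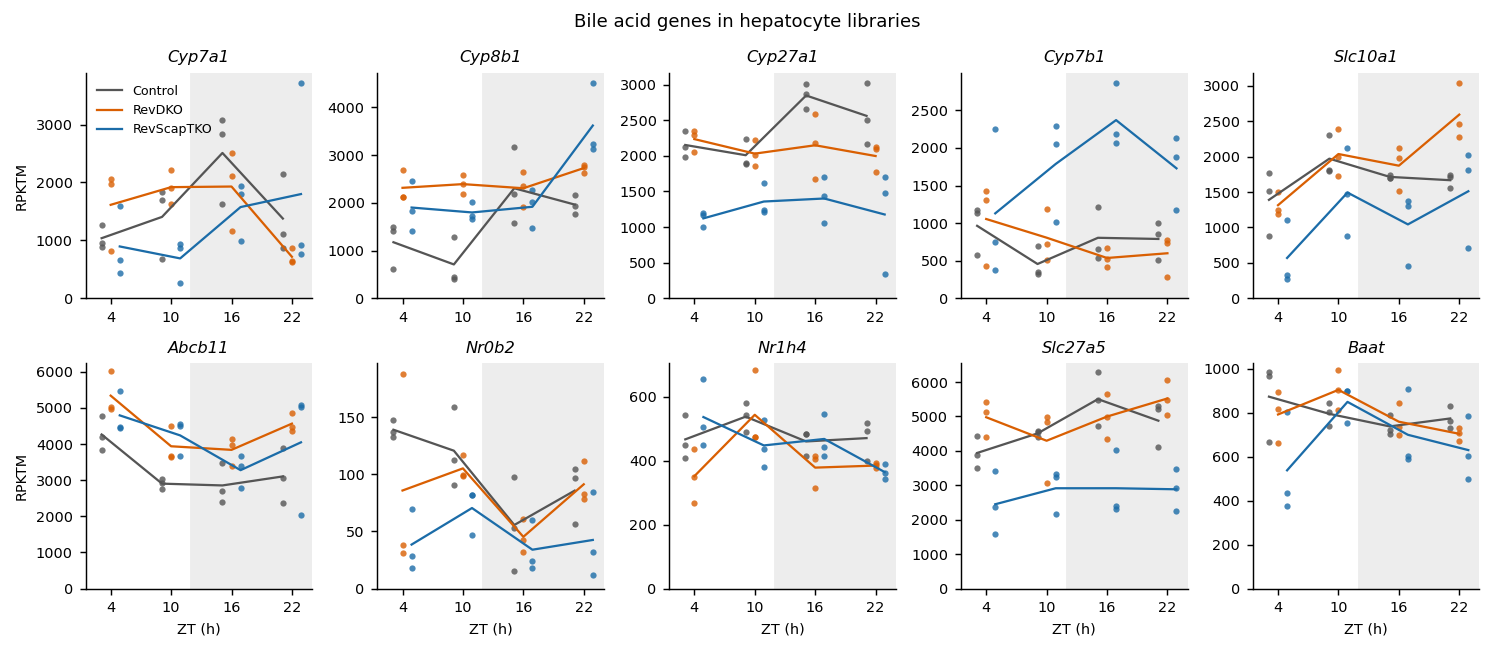
Level of the 10 bile acid genes in hepatocyte libraries, in RPKTM, against ZT in hours, with the dark phase shaded. Points are single libraries (3 per genotype and time point) and lines join the group means. RevDKO points of Cyp8b1 stay between 1916 and 2801 RPKTM at all 4 times while Control points at ZT10 go down to 399 RPKTM, and RevScapTKO points of Slc27a5 and Cyp27a1 lie mostly under the other genotypes.

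The promoters of 3 genes are shown, because Cyp8b1 carried the clearest difference between RevDKO and Control and because Nr0b2 and Slc27a5 held the only motif found among the 10. The 10 transcripts lay, in the mouse build mm9, at chromosome 4, 6192759 to 6202779 (Cyp7a1), chromosome 9, 121823474 to 121825423 (Cyp8b1), chromosome 1, 74760109 to 74784471 (Cyp27a1), chromosome 3, 17971950 to 18143338 (Cyp7b1), chromosome 7, 13573696 to 13583541 (Slc27a5), chromosome 4, 49502290 to 49519430 (Baat), chromosome 12, 82054172 to 82069692 (Slc10a1), chromosome 2, 69076339 to 69180673 (Abcb11), chromosome 4, 133109291 to 133112601 (Nr0b2) and chromosome 10, 88916979 to 88996367 (Nr1h4). The stretches are the 250 bases before the transcript start of the authors' RefSeq annotation, read from the mm9 genome and written 5′ to 3′ on the gene's strand in lower case, with the E-box CACGTG, the site of the CLOCK and BMAL1 activators, in capitals. Cyp8b1 (chr9:121825424-121825673, minus strand), Nr0b2 (chr4:133109041-133109290, plus strand) and Slc27a5 (chr7:13583542-13583791, minus strand) read as follows.
Cyp8b1: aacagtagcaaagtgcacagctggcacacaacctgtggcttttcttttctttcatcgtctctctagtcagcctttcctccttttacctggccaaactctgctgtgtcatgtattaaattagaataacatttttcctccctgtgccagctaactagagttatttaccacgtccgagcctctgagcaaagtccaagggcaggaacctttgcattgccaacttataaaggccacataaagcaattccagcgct
Nr0b2: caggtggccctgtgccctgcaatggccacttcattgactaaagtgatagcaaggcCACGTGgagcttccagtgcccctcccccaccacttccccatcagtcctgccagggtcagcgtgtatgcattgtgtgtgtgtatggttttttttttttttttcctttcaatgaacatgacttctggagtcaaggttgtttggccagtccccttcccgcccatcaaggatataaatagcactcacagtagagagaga
Slc27a5: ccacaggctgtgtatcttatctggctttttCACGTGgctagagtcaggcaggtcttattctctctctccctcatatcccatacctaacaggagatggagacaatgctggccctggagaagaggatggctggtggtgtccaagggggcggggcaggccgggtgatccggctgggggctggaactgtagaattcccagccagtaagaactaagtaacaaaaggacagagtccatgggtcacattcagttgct
The E-box lay 195 to 190 bases before the start of Nr0b2 and 220 to 215 bases before that of Slc27a5, and it was not in this window of the other 8 genes. On both strands it occurred in 6.51% of 25011 promoters of the same length. The longer response element shared by ROR and REV-ERB was in 0 of the 10 windows and in 0.464% of all. The half-site AAGGTCA was in 0 of 10 and 3.57% of all, and the sterol regulatory element TCACNCCAC was in 0 of 10 and 1.03% of all. These counts describe letters in a short window and say nothing of where the factors bind.

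The first comparison asked how the hepatocyte REV-ERBs bear on these genes. Averaged over the 4 time points, 2 of the 10 genes were called higher in RevDKO than in Control hepatocytes and 0 were lower, where 4.43% of all 13326 genes tested were called, 2% higher and 2.43% lower (limma, Benjamini-Hochberg adjusted p under 0.05). The 2 genes were Cyp8b1, which sets the share of cholic acid, and Abcb11, the exporter into bile. The day mean of Cyp8b1 was 2435 ± 291 RPKTM (SD, n = 12) in RevDKO against 1539 ± 802 RPKTM in Control, a log2 difference of 0.89 (SE 0.16, adjusted p = 0.000399), which is 1.85-fold. For Abcb11 the means were 4419 ± 737 and 3281 ± 755 RPKTM, a log2 difference of 0.45 (SE 0.12, adjusted p = 0.0208), or 1.36-fold. Both calls held when any single library was left out, and both held with the mean macrophage marker level as a covariate, at 0.89 (adjusted p = 0.000442) and 0.44 (adjusted p = 0.0222).

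The difference in Cyp8b1 was widest at ZT10, late in the light phase. In Control hepatocytes Cyp8b1 measured 1417, 1485 and 624 RPKTM at ZT4, 1281, 399 and 450.0 at ZT10, 1576, 2179.9 and 3161 at ZT16 and 1775, 2173 and 1943 at ZT22. In RevDKO it measured 2129.7, 2123 and 2691 RPKTM at ZT4, 2587, 2193 and 2397 at ZT10, 2644, 2357 and 1916 at ZT16 and 2751, 2631 and 2801 at ZT22. Control values dipped at ZT10, while those of RevDKO stayed in a narrow band around the clock. The RevDKO and Control groups did not overlap at ZT4, ZT10 and ZT22 and overlapped at ZT16. The share of all genes whose groups did not overlap, in either direction, was 12.2% at ZT4, 17.1% at ZT10, 14.6% at ZT16 and 16.3% at ZT22. Cyp8b1 at ZT10 was the 1 call among the 10 genes at a single time point, where 0.69% of all genes were called higher. At ZT4, ZT16 and ZT22 that share was 0.413%, 0.15% and 0.263%, and 0 of the 10 genes were called in either direction. The difference of Cyp8b1 at ZT10 was 1.96 (SE 0.32, adjusted p = 0.000315) on the log2 scale, 3.89-fold, and it was called with each of the 6 libraries left out in turn.

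Abcb11 showed the same separation at the same time points with a smaller size. Control libraries held 4180.1, 3829 and 4781 RPKTM at ZT4, 2751, 3037 and 2921 at ZT10, 2397, 2691 and 3471 at ZT16 and 3063, 2357 and 3889 at ZT22. RevDKO libraries held 4956, 5027 and 6031, then 4509, 3640.3 and 3663, then 3986, 3389 and 4139.7 and 4869.9, 4350.2 and 4472 RPKTM at the same times. All RevDKO values lay above all Control values at ZT4, ZT10 and ZT22, where 12.2%, 17.1% and 16.3% of all genes did not overlap in either direction. Both genotypes were highest at ZT4. No single time point passed the test for Abcb11.

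The other 8 genes did not pass the test between RevDKO and Control. The rate-limiting enzyme Cyp7a1 had almost the same day mean in both, 1545 ± 678 and 1583 ± 778 RPKTM, with a difference of -0.04 (SE 0.26, adjusted p = 0.969). Its 3 RevDKO libraries at ZT22, 633, 642 and 877 RPKTM, were the lowest group of that genotype. The Control libraries at ZT22 held 877, 2141 and 1114 RPKTM, and the groups touched at 877 RPKTM. In the alternative route the differences were -0.18 (SE 0.16, adjusted p = 0.64) for Cyp27a1 and -0.04 (SE 0.25, adjusted p = 0.965) for Cyp7b1. All RevDKO values of Cyp27a1 and of the bile acid receptor gene Nr1h4 lay below those of Control at ZT16 and at ZT22. At these times 14.6% and 16.3% of all genes did not overlap in either direction. For Nr1h4 the Control values were 483, 482 and 414 RPKTM at ZT16 and 400.0, 518 and 492 at ZT22, and those of RevDKO were 413, 315 and 405 and 392, 376 and 386 RPKTM, with a day mean difference of -0.25 (SE 0.09, adjusted p = 0.136). The uptake carrier Slc10a1 was above Control in all 3 RevDKO libraries at ZT22 alone, 2457, 3037 and 2282 against 1552, 1708 and 1739.7 RPKTM. The conjugation genes had differences of 0.07 (SE 0.12, adjusted p = 0.839) for Slc27a5 and -0.01 (SE 0.11, adjusted p = 0.977) for Baat, and Nr0b2 had -0.30 (SE 0.30, adjusted p = 0.682).

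The second comparison asked what a further deletion of Scap adds, as RevScapTKO against RevDKO, and the third set RevScapTKO against Control. They share the RevScapTKO libraries, and the third shares the Control libraries with the first, so the values are given side by side and not as separate evidence. Averaged over the day, 1 gene was higher and 4 were lower in RevScapTKO than in RevDKO hepatocytes, where 26.2% of all genes tested were called, 13.5% higher and 12.7% lower. Against Control 3 were higher and 5 lower, where 35.9% of all genes were called, 17.3% higher and 18.7% lower. Cyp7b1 of the alternative route was higher in both comparisons, and Cyp27a1, Slc27a5, Slc10a1 and Nr0b2 were lower in both. Cyp8b1 and Abcb11 were higher and Baat was lower against Control.

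RevScapTKO hepatocyte libraries also held more macrophage markers than the other genotypes (summed levels above), with sums of 1046 to 2681 RPKTM at ZT4 and 4160.0 to 6689.9 RPKTM at ZT22, and none of the 12 markers was at 0 in all libraries of a group. The 6 stellate cell markers summed to 1435 to 3486 RPKTM in RevScapTKO and 222 to 1824 RPKTM in Control, and the 6 endothelial markers to 1091 to 2703 and 401 to 2303 RPKTM. The 6 cholangiocyte markers were low, 92.0 to 379 RPKTM in RevScapTKO and 90.7 to 282 RPKTM in Control, with Krt7 at 0 in all libraries of several groups. The 5 markers of other immune cells summed to at most 12.7 RPKTM in RevScapTKO and 32.6 RPKTM in Control. In bulk samples fewer hepatocytes and less RNA per hepatocyte cannot be told apart. A fit with the mean macrophage marker level as a covariate is therefore given beside each day mean call in RevScapTKO. With it 2 genes were called between RevScapTKO and RevDKO, Cyp7b1 and Slc27a5, and 3 between RevScapTKO and Control, Cyp7b1, Slc27a5 and Cyp27a1. At single times it left the calls of Cyp8b1 and Cyp7b1 at ZT10, Cyp7b1 at ZT16 and Cyp27a1 at ZT22, and none of the 9 calls at ZT4 or those of Slc27a5 at ZT16 and ZT22. Among the calls lost, some differences stayed of similar size, such as Slc27a5 against RevDKO at ZT4 (-0.995) and ZT22 (-0.86) and against Control at ZT16 (-0.88), and that of Nr1h4 at ZT4 was 0.70, while that of Slc10a1 at ZT4 was -0.82 against RevDKO and -0.53 against Control. The part of the other cell types in these values was not tested beyond this fit. The share of all genes called with the covariate was not counted. A loss of calls over all genes therefore cannot be told from a loss particular to these genes.

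**Figure D2:**
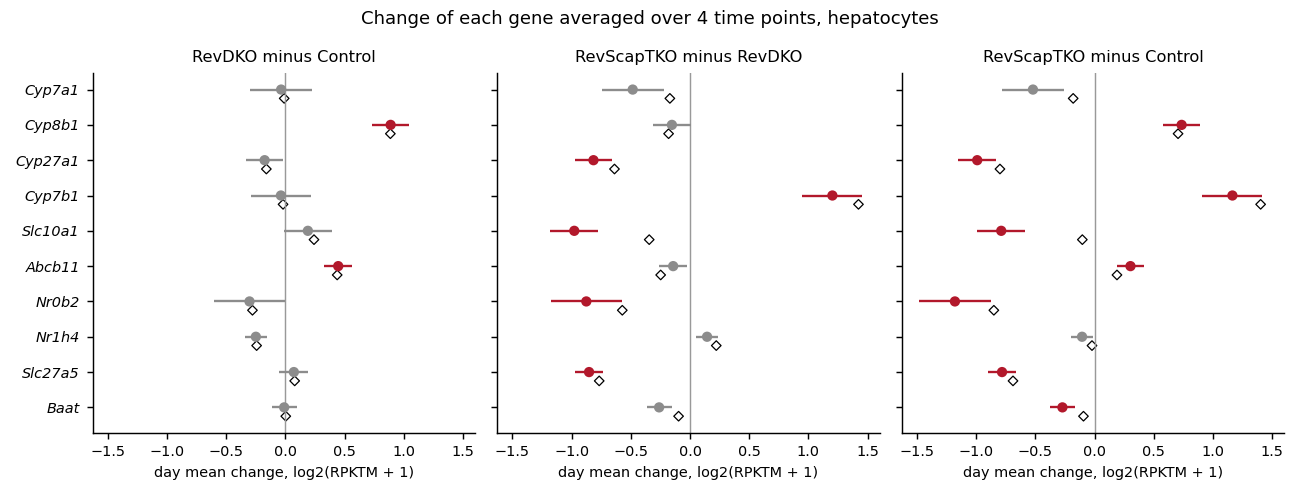
Difference between genotypes averaged over 4 time points for each gene in hepatocytes, on the log2(RPKTM + 1) scale. Circles are limma estimates with bars of 1 SE, red where the adjusted p was under 0.05 and grey otherwise, and open diamonds are the same contrast with the mean macrophage marker level as a covariate. Cyp7b1 lies to the right and Slc27a5 to the left of 0 in both RevScapTKO panels by either fit, while the diamonds of Slc10a1 lie closer to 0 than its circles.

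In the alternative route the pair of enzymes moved in opposite directions. Cyp27a1 measured 1173, 1197 and 997 RPKTM at ZT4, 1244, 1218 and 1612 at ZT10, 1442, 1708 and 1053 at ZT16 and 1485, 344 and 1701 at ZT22 in RevScapTKO. In Control it measured 1983, 2123 and 2348, then 2241, 1894 and 1889, then 2656, 2874 and 3009 and 2159.9, 3024 and 2496 RPKTM. Every one of the 12 RevScapTKO libraries lay below every Control library, a separation over the whole day that 0.991% of all genes showed in either direction. The day mean differed from RevDKO by -0.82 (SE 0.16, adjusted p = 0.000335) and from Control by -0.99 (SE 0.16, adjusted p = 1.61e-05). With the marker covariate these were -0.64 (adjusted p = 0.132), no longer called, and -0.80 (adjusted p = 0.0278). The second library of ZT22, at 344 RPKTM, was the lowest of all. Cyp27a1 was also called at ZT4 against both genotypes (-0.995 and -0.94, adjusted p = 0.0446 and 0.0367), where 9.28% and 18.9% of all genes were called, a call lost in 5 of 6 fits with 1 library left out in each case. At ZT22 it was called against Control, where 3.62% of all genes were, at -1.41 (SE 0.32, adjusted p = 0.00784), and leaving out that lowest library gave -0.67 (adjusted p = 0.0803) while leaving out the second Control library gave -1.28 (adjusted p = 0.0575).

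Cyp7b1, the next enzyme of the same route, was higher. RevScapTKO libraries held 2257, 378 and 755 RPKTM at ZT4, 2054, 1017 and 2288 at ZT10, 2864, 2059.8 and 2186 at ZT16 and 1874, 1176 and 2136 at ZT22. RevDKO libraries held 1428, 425 and 1311, then 1184, 508 and 728, then 526, 663 and 421 and 774, 286 and 739 RPKTM, and Control libraries 577, 1138 and 1178, then 699, 344 and 327, then 1216, 658 and 541 and 860.1, 511 and 998 RPKTM. RevScapTKO lay wholly above RevDKO at ZT16 and ZT22 and wholly above Control at ZT10, ZT16 and ZT22, and the groups overlapped at ZT4, where 1 RevScapTKO library held 378 RPKTM. Of all genes, 18.3% and 22.7% did not overlap with RevDKO at ZT16 and ZT22, in either direction. Against Control 28%, 22.5% and 24.4% did not overlap at ZT10, ZT16 and ZT22. The day mean of 1754 ± 743 RPKTM differed by 1.20 (SE 0.25, adjusted p = 0.000794) from RevDKO and by 1.16 (SE 0.25, adjusted p = 0.000679) from Control, 2.30-fold and 2.24-fold. The marker covariate left both calls, at 1.423 (adjusted p = 0.0163) and 1.40 (adjusted p = 0.0154). At single times it was called at ZT16 against RevDKO (2.15, adjusted p = 0.0191, 1.37% of all genes called) and at ZT10 against Control (1.97, adjusted p = 0.0193, 4.35% of all genes called), each lost in 4 of 6 fits with 1 library left out. The ratio of Cyp7b1 to Cyp27a1 within a library, a measure chosen after the group means were seen, had a median and range of 0.301 (0.169 to 0.536) in Control, 0.333 (0.135 to 0.623) in RevDKO and 1.34 (0.316 to 3.42) in RevScapTKO.

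In the classical route Cyp8b1 was higher in RevScapTKO than in Control, and Cyp7a1 did not pass a test with all libraries in the fit. Cyp8b1 measured 2466, 1822 and 1417 RPKTM at ZT4, 1731, 1653 and 2013 at ZT10, 1468, 2021 and 2264 at ZT16 and 3121, 4509 and 3227 at ZT22 in RevScapTKO. Its day mean exceeded Control by 0.73 (SE 0.16, adjusted p = 0.000638), which with the marker covariate was 0.70 (adjusted p = 0.0675), and differed from RevDKO by -0.15 (SE 0.16, adjusted p = 0.504). At ZT10 all 3 libraries lay above Control, with a difference of 1.55 (SE 0.32, adjusted p = 0.00246), a call that no single library removed. At that time 28% of all genes did not overlap in either direction and 4.35% were called. Cyp7a1 was variable within every group. RevScapTKO libraries held 1590.0, 665 and 433 RPKTM at ZT4, 932, 265 and 872 at ZT10, 984, 1943 and 1800.1 at ZT16 and 3714, 915 and 772 at ZT22. They lay below RevDKO (1903, 1636 and 2221 RPKTM) without overlap at ZT10, as 16.3% of all genes did in either direction, and the first ZT22 library was the highest of all 36. The day mean differed by -0.48 (SE 0.26, adjusted p = 0.174) from RevDKO and by -0.52 (SE 0.26, adjusted p = 0.121) from Control. Without that first ZT22 library Cyp7a1 was called lower in both comparisons, at -0.66 (limma, adjusted p = 0.0404) and -0.70 (adjusted p = 0.0242). Without the first ZT4 library of RevScapTKO it was called against Control (-0.65, adjusted p = 0.0428). Within a library the ratio of Cyp8b1 to Cyp7a1 had a median and range of 0.993 (0.265 to 2.02) in Control, 1.36 (0.939 to 4.35) in RevDKO and 2.08 (0.84 to 6.23) in RevScapTKO, so the ranges overlapped.

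Of the conjugation genes, Slc27a5 had the smallest adjusted p of the 10 genes in both RevScapTKO comparisons. RevScapTKO libraries held 3408, 1581 and 2357 RPKTM at ZT4, 3334, 2179.9 and 3227 at ZT10, 4026, 2319 and 2397 at ZT16 and 2933, 2246 and 3471 at ZT22. RevDKO libraries held 5118, 4394 and 5418, then 4979.6, 3076 and 4827, then 4979.6, 4350.2 and 5659 and 5471, 6068 and 5027 RPKTM, and Control libraries 3889, 3493 and 4435, then 4584, 4542 and 4394, then 5471, 4734 and 6304 and 5218, 5313 and 4098 RPKTM. RevScapTKO lay below Control without overlap at all 4 times (25.5%, 28%, 22.5% and 24.4% of all genes did not overlap at ZT4, ZT10, ZT16 and ZT22), and below RevDKO at ZT4, ZT16 and ZT22 (24.1%, 18.3% and 22.7% of all genes did not overlap). The day mean differed by -0.85 (SE 0.12, adjusted p = 5.27e-06) from RevDKO and -0.78 (SE 0.12, adjusted p = 1.11e-05) from Control, and with the covariate by -0.77 (adjusted p = 0.00544) and -0.69 (adjusted p = 0.0125). It was called against RevDKO at ZT4 (-1.09, adjusted p = 0.00526, 9.28% of all genes called) and ZT22 (-0.96, adjusted p = 0.0273, 2.35% called), and against Control at ZT4 (-0.75, adjusted p = 0.0307, 18.9% called) and ZT16 (-0.96, adjusted p = 0.0207, 3.24% called). Without the second RevScapTKO library of ZT4, at 1581 RPKTM, those ZT4 differences were -0.81 (adjusted p = 0.0786) and -0.47 (adjusted p = 0.238). With 1 library left out, the calls of Slc27a5 were lost in 1 of 6 fits at ZT4 and 3 of 6 at ZT22 against RevDKO, and in 5 of 6 at ZT4 and 4 of 6 at ZT16 against Control. Baat, the last step of conjugation, differed less, with 679 ± 187 RPKTM in RevScapTKO, 790.0 ± 105 in RevDKO and 795 ± 99.0 in Control. Its day mean differed by -0.27 (SE 0.11, adjusted p = 0.0444) from Control, a call lost in 15 of 24 fits with 1 library left out and with the covariate, -0.09 (adjusted p = 0.802). Against RevDKO it was not called with all libraries, but was in 4 of 24 fits with 1 library left out. The largest of those differences was -0.34 (limma, adjusted p = 0.00506). At ZT4 Baat was 804, 377 and 434 RPKTM in RevScapTKO and 966, 986 and 668 RPKTM in Control, a difference of -0.76 (SE 0.21, adjusted p = 0.0136, 18.9% of all genes called), lost in 4 of 6 such fits.

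The 2 transporters were not called in the same direction, Slc10a1 being lower and Abcb11 higher than in Control. Slc10a1, the uptake carrier, measured 1106, 268 and 336 RPKTM at ZT4, 1474, 880.2 and 2123 at ZT10, 1304, 1367 and 458 at ZT16 and 1809, 707 and 2017 at ZT22 in RevScapTKO. RevDKO libraries held 1197, 1506 and 1240.5, then 1720.0, 2389 and 1999, then 2123, 1978 and 1513 and 2457, 3037 and 2282 RPKTM. RevScapTKO lay below RevDKO without overlap at ZT4, ZT16 and ZT22, as 24.1%, 18.3% and 22.7% of all genes did in either direction. Its libraries of 1 time point spread widely, with 458 and 1367 RPKTM at ZT16 and 707 and 2017 RPKTM at ZT22. The day mean differed by -0.98 (SE 0.20, adjusted p = 0.000688) from RevDKO and -0.79 (SE 0.20, adjusted p = 0.0032) from Control, and with the marker covariate by -0.34 (adjusted p = 0.611) and -0.10 (adjusted p = 0.878), so neither call was kept. At ZT4 it was called against both (-1.495 and -1.52, adjusted p = 0.0204 and 0.0102), where 9.28% and 18.9% of all genes were called, each lost in 3 of 6 fits with 1 library left out. Abcb11, the exporter, measured 4435, 4472 and 5471 RPKTM at ZT4, 3663, 4509 and 4542 at ZT10, 3389, 3663 and 2776 at ZT16 and 5069, 2043 and 5027 at ZT22. Its day mean exceeded Control by 0.30 (SE 0.12, adjusted p = 0.0442), a call lost in 16 of 24 fits with 1 library left out and with the covariate, 0.19 (adjusted p = 0.613), and it differed from RevDKO by -0.14 (SE 0.12, adjusted p = 0.39).

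Of the regulators, Nr0b2 was lower in RevScapTKO. It measured 28.5, 69.3 and 17.5 RPKTM at ZT4, 82.2, 47.0 and 82.1 at ZT10, 60.1, 23.7 and 18.1 at ZT16 and 31.9, 11.6 and 84.0 at ZT22 in RevScapTKO. Control libraries held 148, 132 and 137, then 90.7, 112 and 159, then 98.0, 15.7 and 53.0 and 96.5, 104 and 56.1 RPKTM. The groups did not overlap at ZT4 and ZT10, where 25.5% and 28% of all genes did not overlap in either direction. In RevDKO at ZT4 the libraries themselves disagreed, at 31.3, 37.9 and 188 RPKTM. The day mean in RevScapTKO differed by -0.88 (SE 0.30, adjusted p = 0.0312) from RevDKO, a call lost in 8 of 24 fits with 1 library left out, and by -1.18 (SE 0.30, adjusted p = 0.00301) from Control, called in all 24. With the covariate the values were -0.57 (adjusted p = 0.65) and -0.85 (adjusted p = 0.288). At ZT4 it differed from Control by -2.05 (SE 0.60, adjusted p = 0.0184, 18.9% of all genes called), a call lost in 3 of 6 fits with 1 library left out. Nr1h4, whose product is known to induce Nr0b2, did not pass the day mean test, at 0.14 (SE 0.09, adjusted p = 0.258) against RevDKO and -0.11 (SE 0.09, adjusted p = 0.387) against Control. At ZT4 alone it was higher in RevScapTKO, 505, 655 and 448 RPKTM, than in RevDKO, 349, 267 and 436 RPKTM, by 0.62 (SE 0.19, adjusted p = 0.0338, 9.28% of all genes called), a call lost in 3 of 6 fits with 1 library left out.

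Daily patterns were examined within each genotype with JTK_CYCLE, a rank test for a cosine-like course. Each series was entered 2 times in a row, which counts each value 2 times and makes p too small, so the result with the series entered once is given beside it. A gene was called rhythmic with a 24 h period, an adjusted p under 0.05 and a ratio of highest to lowest time point mean above 1.5. This adjusted p was multiplied by the 7 patterns tried and was not adjusted over genes. Entered once and adjusted over transcripts as well, 0 of these genes were called in any genotype of either cell type. In Control hepatocytes 3 genes were called, Cyp7a1, Cyp8b1 and Nr0b2, where 29% of all genes were. Cyp8b1 had the largest ratio, 3.25, with its fitted peak at ZT19 (JTK_CYCLE, adjusted p = 5.18e-06 with the series entered 2 times). It was the 1 gene called with the series entered once (JTK_CYCLE, adjusted p = 0.0152, exact), where 10.2% of all genes were. Cyp7a1 peaked at ZT16 with a ratio of 2.42, and Nr0b2, the repressor gene, at ZT4 with a ratio of 2.50. With 1 library left out, the call of Cyp7a1 was lost in 8 of 12 fits, and those of Cyp8b1 and Nr0b2 in 0 of 12. Slc27a5, Cyp27a1, Slc10a1 and Abcb11 had adjusted p-values under 0.05 as well, with ratios of 1.40, 1.417, 1.418 and 1.494, under the limit.

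In RevDKO hepatocytes Cyp7a1 and Nr1h4 were called with the series entered 2 times (29.7% of all genes) and 0 genes with it entered once (8.28% of all genes). The ratio of Cyp8b1 was 1.18 in RevDKO against 3.25 in Control. In RevScapTKO Cyp7a1, Cyp8b1 and Cyp7b1 were called (20.8% of all genes), and 0 with the series entered once (2.66%). With 1 library left out, the calls of Cyp7a1 and Nr1h4 in RevDKO were lost in 5 and 6 of 12 fits, and those of Cyp7a1 and Cyp7b1 in RevScapTKO in 6 and 8 of 12. The fitted peak of Cyp7a1 was at ZT13 in RevDKO and ZT19 in RevScapTKO. A direct test of the difference between genotypes in the 24 h cosine terms called 0 of the 10 genes in each of the 3 comparisons (limma), where 0.203% of all genes were called between RevDKO and Control, 0% between RevScapTKO and RevDKO and 0.188% between RevScapTKO and Control. At an unadjusted p under 0.05 these tests had 654, 674 and 952 genes. The nearest was Cyp8b1, whose peak-to-trough size was 1.96 on the log2 scale in Control and 0.19 in RevDKO (limma, adjusted p = 0.249). When the first Control library of ZT10, at 1281 RPKTM, was left out, the difference for Cyp8b1 passed (adjusted p = 0.0119), the 1 member call of this test in any fit with a library left out of this comparison. With all libraries the test left it undecided whether its daily course differed.

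ScapKO hepatocytes were described within their own table, since no Control shares their normalisation. Their sample titles name hepatocytes while a cell type label names macrophages, and the titles were followed, the hepatocyte markers being the higher in every library. The second ZT22 library stood apart, with hepatocyte markers summing to 490928 RPKTM against at least 1302520 RPKTM in the others of that time, macrophage markers at 3713 RPKTM and Scap at 1006 RPKTM against 204.8 to 379.6 RPKTM in the other 11 libraries. All 10 genes were present. Slc27a5 (5369 ± 1229.8 RPKTM, SD, n = 12) and Abcb11 (5277 ± 1240.5 RPKTM) were highest and lay within their spread of each other, and Nr0b2 (212 ± 84.5 RPKTM) was lowest. Cyp7b1 (2915 ± 1154 RPKTM) stood near Cyp27a1 (2170.3 ± 375 RPKTM), with a ratio within a library of 1.419 (0.55 to 2.89) as median and range.

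In ScapKO hepatocytes 4 of the 10 genes were called rhythmic (19.1% of all genes), namely Cyp7a1, Cyp8b1, Slc10a1 and Abcb11. Cyp8b1 measured 2287, 1051 and 1612 RPKTM at ZT4, 1115, 1275 and 2568 at ZT10, 3585, 4344 and 4742 at ZT16 and 4208, 3918 and 4296 at ZT22. Light and dark libraries of Cyp8b1 did not overlap, and its ratio was 2.56 with a fitted peak at ZT19. The share of all genes whose libraries lay apart between times was not counted in ScapKO, here or for the genes below. Slc10a1 measured 1996, 2608 and 2831 RPKTM at ZT4, 3648, 3094 and 3622 at ZT10, 3849.8, 3789 and 4071 at ZT16 and 3907, 4232 and 3744 at ZT22. Abcb11 ran the other way, with 7524, 6198 and 7006 RPKTM at ZT4, 4656, 4506 and 5275 at ZT10, 4366, 4014 and 4164 at ZT16 and 4084, 6631 and 4901 at ZT22. At ZT4 all Slc10a1 values lay below, and all Abcb11 values above, those of the other times, save the Abcb11 value of 6631 RPKTM in the ZT22 library that stood apart, which exceeded 1 of the ZT4 values. These 3 genes were also called with the series entered once (4.95% of all genes), and all 4 calls were kept without the second ZT22 library. Without the first ZT4 library Slc10a1 fell under the ratio limit (1.46), and without the first ZT16 library Nr0b2 (ratio 2.15) and Nr1h4 were called in addition. Cyp7a1 was lowest at ZT4, 549.6, 1112 and 819.5 RPKTM, below every library of the other 3 time points.

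**Figure D3:**
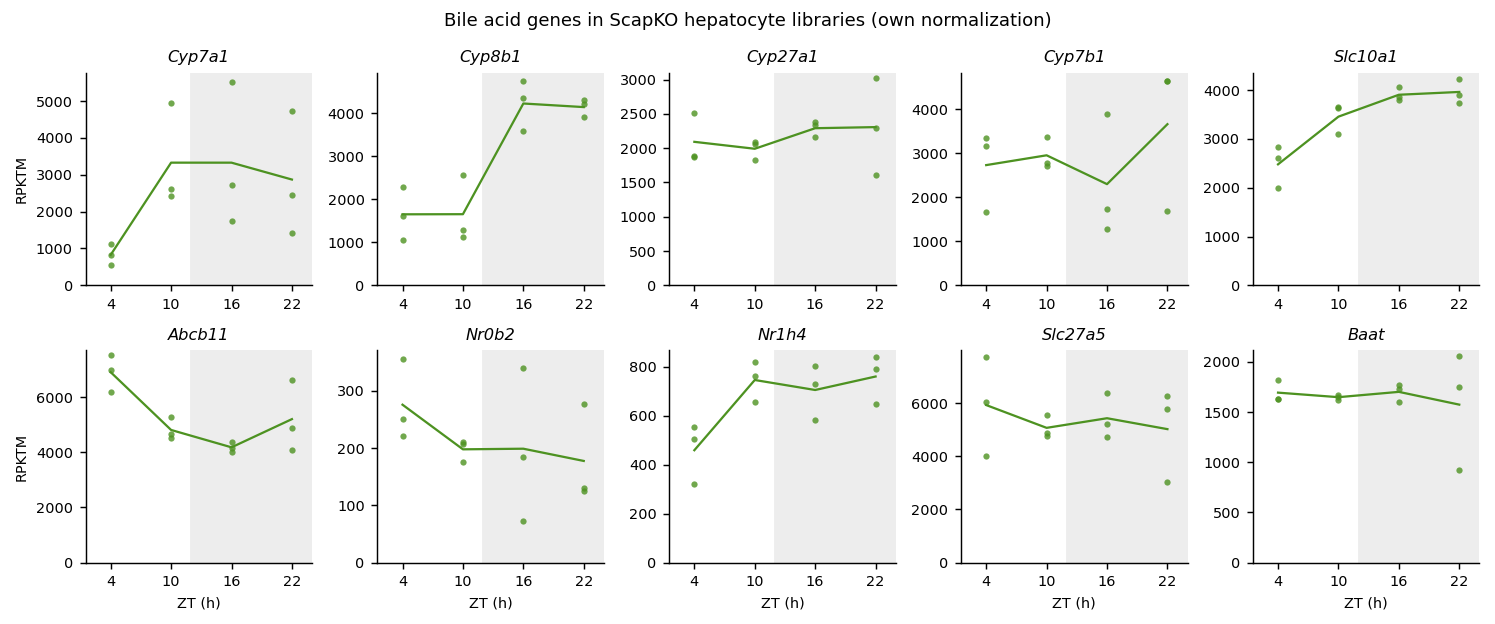
Level of the 10 bile acid genes in ScapKO hepatocyte libraries in RPKTM, normalised on their own, against ZT in hours with the dark phase shaded. Points are single libraries (3 per time point) and lines join the group means. Cyp8b1 lies between 1051 and 2568 RPKTM at ZT4 and ZT10 and between 3585 and 4742 RPKTM at ZT16 and ZT22.

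A wider list of 43 genes of bile acid synthesis, transport and regulation was counted in hepatocytes, of which 38 passed the level filter (Ch25h, Gpbar1, Slc51a, Slc51b and Vdr did not). Between RevDKO and Control 1 rose and 2 fell, where 2% of all genes were called higher and 2.43% lower, with a median log2 difference of -0.10 beside -0.01 over all genes. The carrier Slco1a4 rose by 1.28 (SE 0.26, adjusted p = 0.00168), and Hsd17b4, a peroxisomal enzyme of side chain shortening, differed by -0.39 (SE 0.10, adjusted p = 0.01) and the nuclear receptor gene Nr1i3 by -0.40 (SE 0.11, adjusted p = 0.0209). Between RevScapTKO and RevDKO 4 rose, all of them from the transport part of the list, and 6 fell, with a median of -0.10 beside -0.03. The 10 calls of 38 were about the share over all genes, of which 26.2% were called, 13.5% higher and 12.7% lower. The 3 largest rises were 0.93 (adjusted p = 0.00471) in Abcc3, an efflux pump of the basolateral membrane, 0.89 (adjusted p = 0.000138) in Abcb4, the phospholipid exporter of bile, and 0.88 (adjusted p = 7.17e-06) in the epoxide hydrolase gene Ephx1. The 3 largest falls were -1.40 (adjusted p = 0.0004) in Cyp39a1, an oxysterol hydroxylase, -1.39 (adjusted p = 0.000422) in Cyp46a1, a cholesterol hydroxylase, and -0.94 (adjusted p = 0.00196) in Cyp2c70, which makes the muricholic acids of mice. Cyp46a1 was low throughout, with genotype means of 2.38 to 6.90 RPKTM.

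Against Control 4 of the 38 rose and 14 fell in RevScapTKO, with a median of -0.14 beside -0.04 over all genes, of which 17.3% were called higher and 18.7% lower. The 14 listed synthesis genes that were tested had 0 rises and 8 falls, the 12 transport genes 4 rises and 3 falls, and the 12 regulators 0 rises and 3 falls. The largest rises were 1.14 (adjusted p = 0.000989) in Slco1a4, 0.98 (adjusted p = 2.33e-05) in Abcb4 and 0.93 (adjusted p = 1.62e-06) in Ephx1. The largest falls were -1.40 (adjusted p = 0.000241) in Cyp39a1, -0.78 (adjusted p = 0.0258) in Cyp46a1 and -0.77 (adjusted p = 1.37e-05) in the uptake carrier gene Slco2b1. With the macrophage marker covariate the counts of the list were 3 genes in each RevScapTKO comparison, with Cyp39a1 and Ephx1 in both and Slco2b1 against Control, while Abcb4, Abcc3, Slco1a4, Cyp2c70 and Cyp46a1 were not called there. The part of other cell types in those was not tested further. The share of all genes called with the covariate was not counted.

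Likeness of course was described over the 12 hepatocyte group means, which share libraries and normalisation, so no p is given. The genes nearest to Slc27a5 were Acacb (Pearson r = 0.98), Pm20d1 (0.97) and Mfsd2a (0.97). Those nearest to Cyp27a1 were Gm4956 (0.96), Cyp4a12b (0.95) and Tm7sf2 (0.95), and Ackr2 (0.93) and Chid1 (0.93) were near to Cyp8b1. Cyp7b1 was nearest to Selenbp2 (0.89), Rnf19a (0.89) and C6 (0.88), and Slc10a1 to Cyc1, Serpina1d and Il1rap (0.96 each). Abcb11 was nearest to Cecr2 (0.91), Wnk3 (0.91) and Mug2 (0.90), and Cyp7a1, with the loosest fit, to Zfp830 (0.84), Dnaja1 (0.81) and Ccdc117 (0.80). Nr0b2 was nearest to 1810046K07Rik (0.96), Lipt2 (0.96) and BC048671 (0.93), Nr1h4 to Id1 (0.92), Psme2b (0.90) and Scyl2 (0.88), and Baat to Atp5k (0.98), Bloc1s1 (0.97) and Nipsnap3b (0.97). Among the 10 genes themselves Cyp27a1 followed Slc27a5 (0.90), and Cyp7b1 ran against Slc27a5 (-0.71) and Cyp27a1 (-0.62). Slc10a1 also followed Slc27a5 (0.79) and Baat (0.68), and Nr0b2 followed Baat (0.73).

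The macrophage libraries held RNA of all 10 genes, in a table normalised apart from that of the hepatocytes, so levels were not compared between the cell types. Hepatocyte markers summed to 42708 to 151176 RPKTM in 33 of the 36 libraries, with all 12 above 5 RPKTM, and to 1616220.0, 2418130.0 and 1624040.0 RPKTM in the first Control libraries of ZT16 and ZT22 and the third RevScapTKO library of ZT22. The part of hepatocyte RNA in the levels of the bile acid genes was not tested beyond the fits below. The macrophage markers were present throughout. Control means ran from 20.1 RPKTM for Nr0b2 to 723 RPKTM for Slc27a5, and Cyp27a1, which macrophages are known to express, stood at 343 ± 137 RPKTM (SD, n = 12).

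Between RevDKO and Control macrophage libraries 0 of the 10 genes were called over the day (limma), where 0.574% of 13947 genes were called (0.402% higher, 0.172% lower) and 1934 had an unadjusted p under 0.05. Cyp8b1 came nearest, at 0.97 (SE 0.26, adjusted p = 0.087). At ZT10 all RevDKO values lay above all Control values for 7 of the 10 genes, where 18.5% of all genes did not overlap in either direction, and hepatocyte markers summed to 66969.7 to 118404 RPKTM in RevDKO and 65769 to 101738 RPKTM in Control at that time. For Cyp8b1 the ZT10 values were 419.6, 218 and 228 RPKTM in RevDKO and 115, 61.0 and 86.5 RPKTM in Control. The part of the markers in this was not tested. Between RevScapTKO and RevDKO 3 genes were lower and 0 higher, where 3% of all genes were called (1.23% higher, 1.78% lower). The same 3 were lower against Control, where 3.76% were called (2.38% higher, 1.38% lower). They were Slc27a5, Slc10a1 and Cyp27a1, which were also lower in the hepatocyte libraries.

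Slc27a5 measured 239, 67.9 and 229 RPKTM at ZT4, 80.2, 125 and 122 at ZT10, 389, 341 and 307 at ZT16 and 684, 629 and 502 at ZT22 in RevScapTKO macrophage libraries. RevDKO libraries held 413, 407 and 667, then 1011, 329 and 513, then 1005, 1072 and 1422 and 1617, 1059.7 and 1457 RPKTM. RevScapTKO lay below RevDKO without overlap at all 4 times, where 11.7%, 9.91%, 11.8% and 14.2% of all genes did not overlap at ZT4, ZT10, ZT16 and ZT22. At ZT10 Slc27a5 was also called by itself, at -2.36 (SE 0.47, adjusted p = 0.0153), where 0.151% of all genes were, a call lost in 3 of 6 fits with 1 library left out and with the hepatocyte marker covariate. The day mean differences were -1.73 (SE 0.23, adjusted p = 7.85e-06) and -1.37 (SE 0.23, adjusted p = 0.0003) against RevDKO and Control. Cyp27a1 measured 107, 114 and 194 RPKTM at ZT4, 87.1, 117 and 146 at ZT10, 119, 295 and 247 at ZT16 and 237, 183 and 284 at ZT22 in RevScapTKO, and 304, 271 and 547, then 405, 232 and 257, then 367, 373 and 418 and 450.2, 569 and 349 RPKTM in RevDKO. Cyp27a1 too lay below RevDKO without overlap at every time, with differences of -1.15 (SE 0.19, adjusted p = 0.000165) and -0.95 (SE 0.19, adjusted p = 0.00201). For Slc10a1 they were -1.26 (SE 0.24, adjusted p = 0.00117) and -0.98 (SE 0.24, adjusted p = 0.0144), with RevScapTKO libraries at 24.6 to 284 RPKTM and those of RevDKO at 50.6 to 650.2 RPKTM. All 6 calls held with the mean hepatocyte marker level as a covariate and without the 3 libraries rich in hepatocyte markers, where Slc27a5 differed by -1.69 (adjusted p = 2.58e-05) and -1.44 (adjusted p = 0.000697). In that fit Cyp8b1 differed between RevDKO and Control by 0.66 (adjusted p = 0.32). The covariate takes account of the marker level, not of the genotype of any hepatocyte RNA. The exclusion rests on a summed level, which 1 abundant marker may set, as the highest value of a column was 27.5% of its total. In the third RevScapTKO library of ZT22, which was left out, Slc27a5 was 502 RPKTM, the lowest of its group. Whether the exclusion removed the libraries with most hepatocyte RNA was not tested. As Slc27a5, Slc10a1 and Cyp27a1 were also lower in RevScapTKO hepatocytes, neither fit can tell carried-over hepatocyte RNA from RNA of macrophages. The part of such RNA in the 6 calls was not tested.

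**Figure D4:**
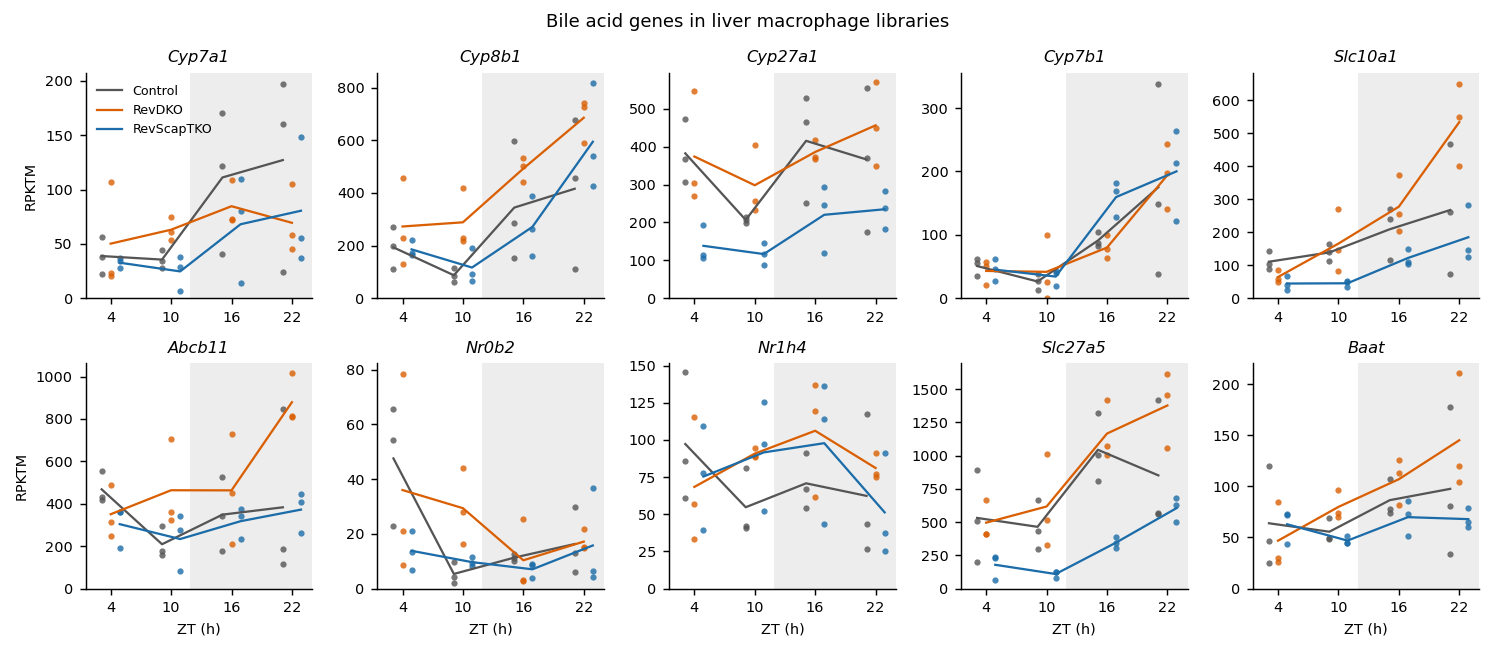
Level of the 10 bile acid genes in liver macrophage libraries, in RPKTM, against ZT in hours, with the dark phase shaded. Points are single libraries (3 per genotype and time point) and lines join the group means. RevScapTKO points of Slc27a5 and Cyp27a1 lie below those of RevDKO at all 4 times, and several genes, among them Cyp8b1, Cyp7b1 and Slc27a5, are higher at ZT22 than at ZT10 in each genotype's mean.

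In the macrophage libraries the genes called rhythmic had fitted peaks at ZT19 or ZT22, save Nr0b2 in Control (ZT1). With the series entered 2 times 4 genes were called in Control (20.2% of all genes), 6 in RevDKO (28.2%) and 7 in RevScapTKO (15.4%), and with it entered once 0 (2.41%), 2 (4.83%) and 4 (1.89%). Cyp8b1, Cyp7b1 and Slc27a5 were among the genes called in all 3 genotypes with the series entered 2 times. Cyp7b1 had ratios of 6.59, 4.65 and 5.83 and a fitted peak at ZT19 in each genotype. Median hepatocyte marker sums were lower at ZT10 than at ZT22 in each genotype (68975 against 126954 RPKTM in Control), and their part in these courses was not tested. The direct test of a changed course called 0 of the 10 genes in each of the 3 comparisons (limma, 0% of all genes), with 767, 498 and 238 genes at an unadjusted p under 0.05.

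ScapKO macrophage libraries, in their own table, held 6 genes called with the series entered 2 times (21.4% of all genes) and 2, Cyp7b1 and Slc27a5, with it entered once (3.12%). The second ZT22 library stood apart here too, with macrophage markers at 24574 RPKTM against at least 89689 RPKTM in the other 11 libraries. It held the highest value of the 12 for 9 of the 10 genes, such as Cyp7a1 (110.1, 929 and 92.4 RPKTM at ZT22) and Nr1h4 (50.1, 716 and 136 RPKTM), the exception being Slc27a5, which was highest in the second ZT4 library (613, 2563 and 526 RPKTM at ZT4). Without that ZT22 library Cyp27a1 and Abcb11 were not called, and the other 4 calls were kept. Both were also lost without other libraries, Abcb11 in 6 and Cyp27a1 in 4 of the 12 fits with 1 library left out, each at an adjusted p just past the threshold.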

How the data were processed

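Total RNA of hepatocytes and liver macrophages was sequenced in 96 libraries. The authors aligned reads with STAR to mm9 and counted them over RefSeq genes with HOMER. The deposited values are RPKTM, reads per kilobase per 10000000 reads (RPKM times 10), quantile normalised by the authors separately in 4 tables, so comparisons were made within a table alone. No depth is given.

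Genes with more than 5 RPKTM in at least 3 libraries were tested with limma 3.58.1 in R 4.3.3 on log2(RPKTM + 1) with a mean-variance trend, all genotypes and time points of a table in 1 fit, with Benjamini-Hochberg adjustment over all genes tested. JTK_CYCLE was written anew in Python 3.11.15, tested on simulated data, and its null distribution was chosen after whole-table counts were seen. The 10 genes, the wider list and the marker lists were chosen with earlier results of these data known. Genes named from the wider list were those of largest change among the called, and the likeness list held the 3 genes of highest correlation, of which 1 is not reported here. Where replicates came from separate mice is not stated per library, and p-values measure the spread between these libraries.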

Additional observations from a re-analysis of the deposited data

Results flagged for a closer look

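Cyp8b1 in hepatocytes differed between RevScapTKO and RevDKO in opposite directions at a pair of time points, with no overlap between the groups at either. At ZT10 all 3 RevScapTKO libraries lay below all 3 RevDKO libraries, with a log2 difference of -0.41 (limma, adjusted p = 0.626). At ZT22 all 3 lay above, with a difference of 0.39 (limma, adjusted p = 0.596). Of all genes 16.3% had groups that did not overlap at ZT10 and 22.7% at ZT22 in this comparison. Neither difference passed the test, and the difference between the time points was not tested by itself. The test of the daily course over all 4 time points did not pass for Cyp8b1 in this comparison (limma, adjusted p = 0.946).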

How the results depend on the processing

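The day mean calls of Cyp8b1 and Abcb11 between RevDKO and Control kept their direction and their side of the threshold under every setting tried, from the pseudocount and the filter to leaving out any library. With the macrophage marker covariate the hepatocyte day mean calls were 3 of 10 in place of 8 against Control and 2 in place of 5 against RevDKO, and 0 at ZT4 in place of 5 and 4, 0 at ZT16 against Control and 0 at ZT22 against RevDKO; the wider list had 5, 3 and 3 calls for RevDKO against Control, RevScapTKO against Control and RevScapTKO against RevDKO. The covariate turned the uncalled day mean differences of Baat in hepatocytes (RevDKO against Control, 0.0026) and, in macrophages, of Cyp7a1 (RevDKO against Control, -0.0747), Nr1h4 (RevScapTKO against RevDKO, 0.15) and Abcb11 (RevScapTKO against Control, 0.16). Without the 3 macrophage libraries rich in hepatocyte markers, an exclusion chosen after seeing the data, the uncalled differences of Cyp7a1 (-0.34) and Slc10a1 (-0.0051) between RevDKO and Control and of Cyp8b1 (-0.0243) and Nr1h4 (-0.17) between RevScapTKO and Control turned as well, and 8 genes were called rhythmic in Control macrophages in place of 4. With no filter on low values RevScapTKO had 1 call at ZT10 and 0 at ZT16 against Control, and 0 at ZT16 and at ZT22 against RevDKO. The single macrophage call at ZT10, Slc27a5 between RevScapTKO and RevDKO, gave 0 calls with no filter, 0 with the covariate, 2 without the 3 libraries named above and 0 to 1 with single libraries left out. Fits of 2 genotypes alone gave 3 calls at ZT4 and 0 at ZT16 against Control, 1 at ZT4 and 0 at ZT22 against RevDKO, and 7 calls on the wider list between RevDKO and Control. Under these settings, and with the replicate blocks below, the share of all genes called was not counted. The counts of members therefore have no background beside them. The causes of these shifts were not tested.

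Same-numbered libraries of a time point had correlated deviations above 0.1 in 13 of 36 hepatocyte and 15 of 36 macrophage pairs. Their median correlation was 0.0484 in hepatocytes and 0.0877 in macrophages, against -0.0290 and -0.0460 in pairs of unlike number. The labels do not say whether the numbers pair the samples, so fits with a replicate block are given as well. With the replicate block RevScapTKO had 2 calls at ZT16 and 2 at ZT22 in each of its comparisons, and with the block within time point 2 at ZT16 and 2 at ZT22 against Control and 2 at ZT4 and 2 at ZT22 against RevDKO. Of the day mean calls 1 was lost with the block within time point, that of Baat against Control (-0.27), and none with the replicate block over all times.

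The null distribution of JTK_CYCLE was chosen after whole-table counts had been seen. The other null, over all sampling times, gave 1 rhythmic gene in RevDKO and 1 in RevScapTKO hepatocytes. With the series entered once the counts were 1 in Control, 0 in RevDKO and 0 in RevScapTKO hepatocytes, and 0, 2, 4 and 2 in Control, RevDKO, RevScapTKO and ScapKO macrophages. Adjusted over transcripts as well, every genotype of both cell types had 0. With no limit on the ratio Control hepatocytes had 7 and RevDKO hepatocytes 5. A limma test of the cosine terms gave 1 in Control, 0 in RevDKO, 0 in RevScapTKO and 1 in ScapKO hepatocytes, and 0, 2, 1 and 0 in the macrophages in the same order.

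Leaving out single libraries gave 1 to 2 calls at ZT10, 0 to 1 at ZT16, 0 to 1 at ZT22 and 0 to 5 at ZT4 for RevScapTKO against Control, and 0 to 1 at ZT16, 0 to 2 at ZT22 and 0 to 5 at ZT4 against RevDKO. The changed course had 0 to 1 between RevDKO and Control, and rhythmic genes numbered 2 to 4 in Control, 0 to 2 in RevDKO, 1 to 4 in RevScapTKO and 3 to 6 in ScapKO hepatocytes, and 2 to 8 in Control and 4 to 7 in ScapKO macrophages. The 8 came without the first Control library of ZT22. The share of all genes called was not counted in fits with a library left out. Macrophage day mean calls between RevDKO and Control numbered 0 to 2, with 1 without the third Control library of ZT16, 2 without the third of ZT22 and 1 without the first RevDKO library of ZT4. Uncalled differences changed sign in hepatocytes between RevDKO and Control, from -0.15 to 0.0728 in Cyp7a1, -0.12 to 0.10 in Cyp7b1 and -0.0565 to 0.0199 in Baat. In macrophages they did so between RevDKO and Control, from -0.19 to 0.18 in Cyp7a1 and -0.55 to 0.28 in Cyp7b1, and between RevScapTKO and Control, from -0.21 to 0.15 in Abcb11, -0.0135 to 0.26 in Nr1h4 and -0.28 to 0.0168 in Baat. Read depth is unknown here, so no limit from counting could be given.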
